A study of Mus musculus with 24 samples.

Results

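The change with age of the NOD to control ratio was measured gene by gene, as the mean log2(NOD/pool) at 20 weeks minus the mean at 10 days. It used 12 of the 24 arrays of the study, 6 per age. Each array carried RNA from the pancreatic islets of 1 female NOD/LtJ (NOD) mouse, labelled with Cy5, against islet RNA pooled from 6 female NOD.B10Sn-H2b/J (NOD.B10) mice of the same age, labelled with Cy3. NOD mice develop autoimmune diabetes, whereas the NOD.B10 controls share much of that background with other alleles in the major histocompatibility complex (MHC). The labels name no drug or other agent given to the mice, and islets were freed by collagenase digestion. All genes were taken, which gave 18070 genes with a probe above background. Positive changes are named higher and negative ones lower; calls needed a limma p adjusted by Benjamini-Hochberg under 0.05 together with a change of 2-fold or more.

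A pancreatic islet is a cluster of hormone-secreting cells, mostly insulin-producing beta cells, with alpha, delta and PP cells and a supporting network of vessels, nerve and connective tissue. In NOD mice, T cells, B cells and myeloid cells gather around and in the islets after weaning, a process called insulitis, and beta cells are lost over the following months. Islets of a mouse pup are still growing and maturing, whereas those of an adult are not. Each age had its own control pool, so a change in the ratio can come from the NOD mice, from the controls, or from both, and both channels are given below. In bulk islet RNA, fewer cells of a type and less RNA per cell cannot be told apart.

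The pool was read as 1 control sample per age. Its own spread is therefore not in the tests, and any difference between the pools is part of the change. The 10 day arrays lay on 2 slides and the 20 week arrays on another 2, with none shared, so slide and age cannot be told apart. The share of probes clearly over background in the NOD channel ran from 49.1% to 62.9% over the 10 day arrays and from 42.3% to 64.6% over the 20 week arrays; for the pool channel the ranges were 44% to 48% and 56.1% to 60.4%. The dimmest NOD signals were those of 20 week mouse 5 (42.3%) and mouse 6 (47.6%). Across genes, the ratios of a 10 day and a 20 week array correlated between -0.54 and 0.15, with 8 pairs of arrays under -0.3. The labels state the dyes, so the direction was kept. No dye was swapped, so strain and dye cannot be told apart in a ratio against 0. Ins1 and Ins2 were among the brightest signals of both channels, at mean log2 levels from 15.5 (Ins1, pool, 10 days) to 17.8 (Ins2, pool, 20 weeks).

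Of the 18070 genes, 1398 (7.74%) were called higher at 20 weeks and 867 (4.8%) lower. The groups of mice did not overlap for 1046 of the genes called higher and for 753 of those called lower, against 4702 (26.0%) of all genes. Calls and overlap come from the same arrays, so a larger share without overlap among called genes follows from their selection. The direction is relative to genes of similar brightness on the same array, because loess sets the ratio near 0 along the whole range of brightness. Without loess, with each array centred on its median, the median change of all genes was -0.64, and 445 genes were called higher and 6622 lower. With the scanner software's own signals that median was -0.14, with 2513 higher and 3181 lower, so the share of calls that were higher ran from 61.7% here to 44.1% and, under median centring, 6.3%. Of the rises described below, Jchain, Bst2, Ifih1, Dhx58, H2-Ab1, H2-K1, Psmb8, Glycam1, Cfb, H19, Mest, Gpc3, Cdkn1c, Cdh5, Sox17, S100b, Ngfr, Fabp4, Egr1, Cyba, Anxa3, Sox9 and Bhlha15 were not called under median centring.

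At 10 days, 291 genes (1.61%) had a ratio called above 0 and 427 (2.36%) below; at 20 weeks 700 (3.87%) were above and 223 (1.23%) below. Of the genes called higher in the change, 566 had not been called at 10 days and were above 0 at 20 weeks, 277 had been below 0 at 10 days and were no longer called, 68 crossed from below to above, and 487 were called at neither age. Of the genes called lower, 84 crossed from above to below, 164 had been above 0 at 10 days and were no longer called, 105 were below 0 only by the call at 20 weeks, and 514 were called at neither age. The change therefore holds genes whose ratio departed from the controls with age and genes whose ratio approached them.

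**Figure D1:**
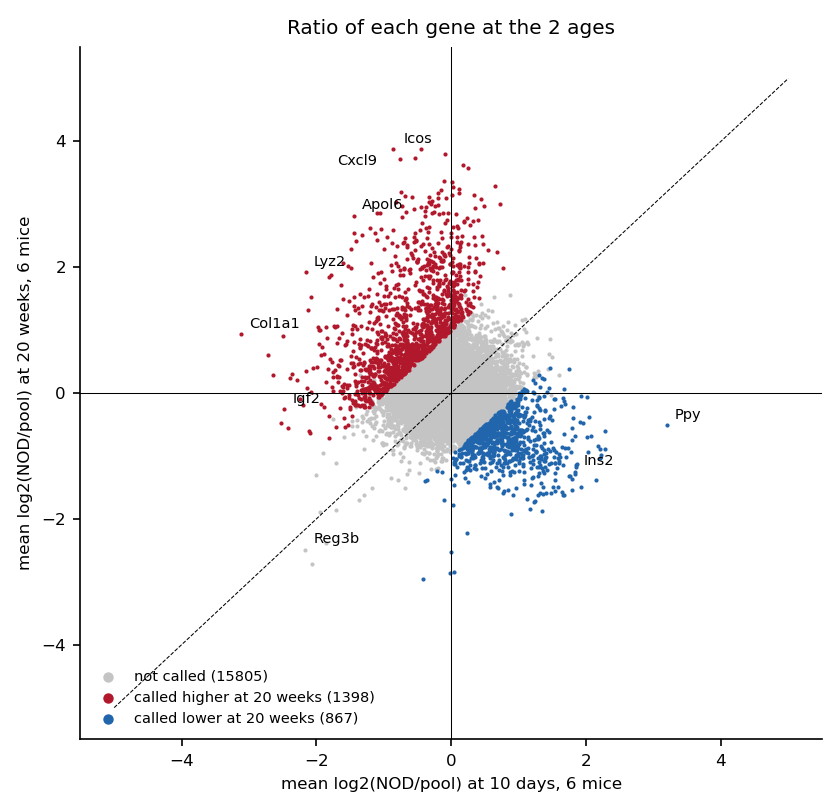
Mean log2(NOD/pool) of each of 18070 genes at 10 days (x axis) and at 20 weeks (y axis), over 6 mice per age, with genes called higher in red, called lower in blue and the rest in grey. The dashed line marks equal ratios; Ppy lies farthest to the right, Col1a1 far to the left, and Icos and Cxcl9 at the top.

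Set side by side, the channels of the array did not contribute alike to the changes. In the NOD channel alone 621 genes (3.44%) were called higher at 20 weeks and 281 (1.56%) lower. Of the 1398 genes with a higher ratio, 411 were called higher in the NOD channel and 76 lower; their median change was 0.42 in the NOD channel and -1.08 in the pool channel. Of the 867 genes with a lower ratio, 30 were called lower in the NOD channel and 16 higher, and the medians were -0.13 (NOD) and 1.36 (pool). The pool channel moved further than the NOD channel for 866 of the genes with a higher ratio and for 782 of those with a lower one. The pool is 1 sample per age, so its change carries no test, and its values are descriptions of these pools.

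**Figure D2:**
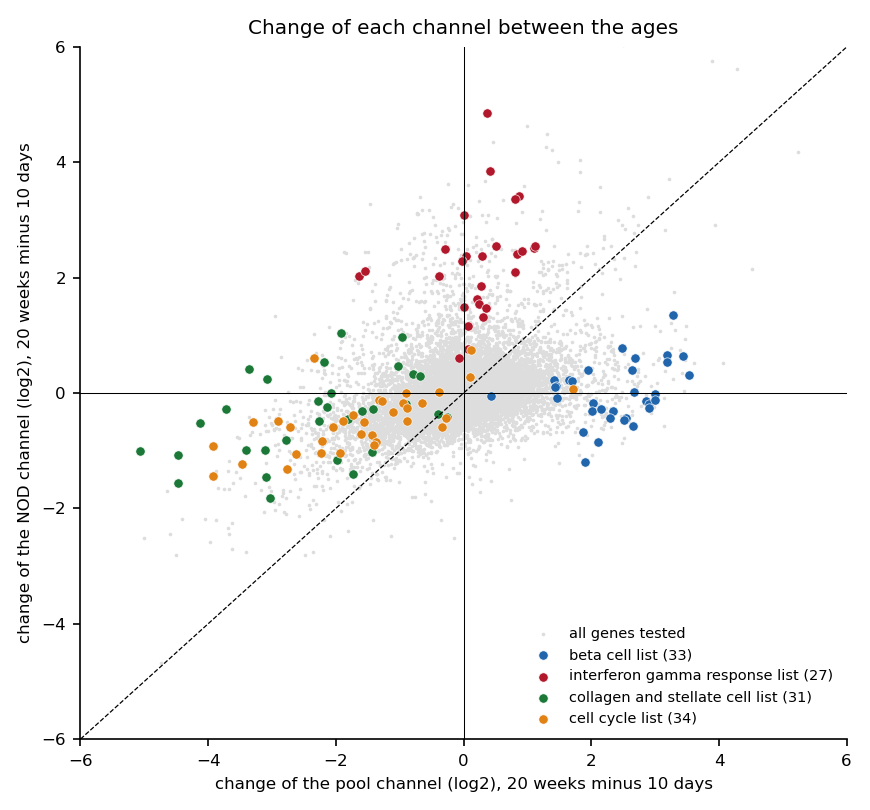
Change between 10 days and 20 weeks in the pool channel (x axis) and the NOD channel (y axis), in log2 units, with all genes in grey and the tested members of 4 gene lists in colour. Points on the dashed line have an unchanged ratio; beta cell genes spread to the right along 0 of the NOD axis, interferon gamma genes rise along 0 of the pool axis, and collagen and cell cycle genes spread to the left.

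Beta cell genes had the most uniform fall of the 38 gene lists examined. Of 33 tested members of the beta cell list, 32 were called lower and none higher, with a median change of -2.55, against -0.004 for all genes. In the NOD channel their median change was -0.05, with 1 member called higher and 1 lower, and in the pool channel it was 2.49. The median ratio of the members was 1.26 at 10 days, when 24 had a ratio called above 0, and -1.03 at 20 weeks, when 17 were called below it. The list thus went from above to below the level of its control pools.

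The insulin genes come first. Ins2 encodes the major mouse insulin and lies on chromosome 7 (probe at chr7:149864675-149864734, mm9, minus strand). Its log2 ratio ran from 0.79 to 2.78 with a median of 2.06 over the 10 day mice, and from -3.66 to -0.25 with a median of -0.75 over the 20 week mice. The ages did not overlap, and 20 week mouse 5 was the lowest. The change was -3.08 ± 0.46 (SE, limma adjusted p = 6.55e-06); the NOD signal fell by 1.19 on the log2 scale (adjusted p = 0.00802) and the pool signal was higher by 1.89.

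Ins1, the second mouse insulin gene, is a retrogene on chromosome 19. Its ratio ran from 0.12 to 2.35 (median 1.36) at 10 days and from -5.11 to -0.68 (median -0.98) at 20 weeks, again without overlap. The change was -2.96 ± 0.55 (SE, limma adjusted p = 9.58e-05), and the NOD channel's own change of -0.85 was not called (adjusted p = 0.166). The 250 bases before the Ins1 start in RefSeq's promoter table (chr19:52264047-52264296, GRCm38.p6, plus strand) are shown because this stretch holds an E box by which beta cell factors act on insulin genes; capitals mark GCCATCTG, searched on both strands.
Ins1: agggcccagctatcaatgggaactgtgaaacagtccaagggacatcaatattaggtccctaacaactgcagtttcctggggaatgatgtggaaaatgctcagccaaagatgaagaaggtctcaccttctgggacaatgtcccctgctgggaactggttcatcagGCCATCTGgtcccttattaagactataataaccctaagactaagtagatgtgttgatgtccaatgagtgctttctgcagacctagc
These letters stand in 1.11% of the 27025 promoter windows of this length in the table and in 1 of the 26 windows matched to the beta cell list. Ins2 has no entry in the table. A match describes the sequence and is not a tested site.

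Genes of beta cell identity and glucose handling followed. Pdx1 and Mafa, transcription factors of the mature beta cell, had changes of -1.32 ± 0.15 (limma adjusted p = 1.28e-07) and -1.55 ± 0.16 (adjusted p = 3.75e-08). Pdx1 ranged from -0.15 to 0.68 at 10 days and from -1.58 to -0.56 at 20 weeks, so all 20 week mice lay under all 10 day mice. Ucn3, a peptide secreted by mature beta cells, changed by -2.65 ± 0.28, Slc2a2, the glucose transporter GLUT2, by -2.53 ± 0.50, and G6pc2, an islet glucose-6-phosphatase, by -3.09 ± 0.56. None of these 5 was called in the NOD channel, where the changes lay between -0.19 (G6pc2) and 0.67 (Slc2a2); the pool channel was higher by 1.43 (Pdx1) to 3.19 (Ucn3 and Slc2a2). The Mafa probe was well above background in the pool on 3 of 6 arrays at 10 days.

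Slc30a8, the zinc transporter of insulin granules and a diabetes autoantigen, lay between 1.08 and 2.34 (median 2.07) at 10 days and between -2.67 and -0.50 (median -1.03) at 20 weeks. Its change was -3.13 ± 0.32 (limma adjusted p = 5.35e-08), with -0.13 in the NOD channel and 3.00 in the pool. Of the 14 tested islet autoantigens, which include Ins1 and Ins2, 10 were called lower (median -1.84) and none higher. In the NOD channel 1 of the 14 was called lower and none higher, with medians of -0.16 there and 1.73 in the pool. Ptprn, the autoantigen IA-2, changed by -2.24 ± 0.24 and Chga, the granule protein chromogranin A, by -3.23 ± 0.32. Chga ran from 1.18 to 2.67 at 10 days and from -2.70 to -0.30 at 20 weeks.

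Other granule proteins were among the largest falls. Scg2 (-3.17 ± 0.43), Scg3 (-3.08 ± 0.46) and Scg5 (-3.02 ± 0.49), members of the secretogranin group, and Pcsk1n, which inhibits the prohormone convertase PCSK1 (-3.34 ± 0.39), were called lower, as was Resp18 (-3.22 ± 0.35), a secretory protein of endocrine cells. The remaining probes of Pcsk1n gave changes between -2.74 and -0.65. Of 19 tested genes of exocytosis and granules, 13 were called lower (median -1.63) and none higher, led by Syt13, a synaptotagmin (-3.16 ± 0.51; its other probe gave -1.37). In the NOD channel 1 of the 19 was called higher and none lower, with medians of 0.03 there and 1.88 in the pool. The 12 largest falls also held Dnaja4 (-3.54 ± 0.38), a heat shock cochaperone whose other probe gave -0.93, Esm1 (-3.30 ± 0.32), Galnt14 (-3.29 ± 0.43), Vstm2l (-3.23 ± 0.43) and Tmigd3 (-3.21 ± 0.34). Gipr, the receptor of an incretin hormone, fell by 2.16 on the log2 scale.

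The hormone genes of the other islet cells fell too. Ppy, which encodes pancreatic polypeptide, had the largest fall of the genes bright in both channels: it ran from 2.25 to 3.96 (median 3.2) at 10 days and from -3.33 to 0.36 (median 0.09) at 20 weeks. Its change was -3.70 ± 0.62 (limma adjusted p = 2.67e-05), a 13.0-fold lower ratio. All but mouse 5 of the 20 week mice lay between -0.60 and 0.36, so in most of them Ppy was near the control level. Gcg, the glucagon gene of alpha cells, changed by -3.10 ± 0.39 (a second probe gave -0.16), Sst, the somatostatin gene of delta cells, by -2.37 ± 0.38 and Pyy, the peptide YY gene, by -2.88 ± 0.57, with the ages just overlapping. Gcg also fell in the NOD channel, by 1.08 on the log2 scale (adjusted p = 0.0011), while Sst, Ppy and Pyy were not called there. Of the 16 tested genes of other endocrine cells, 10 were called lower (median -1.38) and none higher. In the NOD channel 4 of the 16 were called lower and none higher, with medians of -0.67 there and 0.42 in the pool.

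The beta cell list was lower in every 20 week mouse than in every 10 day mouse, and 20 week mouse 5 stood apart. The mean ratio of its 33 members lay between 0.63 and 1.76 over the 10 day mice and, over the 20 week mice, between -0.86 and -0.54 in mice 1 to 4, with -1.30 in mouse 6 and -2.48 in mouse 5. In mice 5 and 6 the mean of the 28 tested acinar genes, which encode digestive enzymes of the surrounding exocrine tissue, was 1.5 or higher (2.10 in mouse 5), while in the other 20 week mice it was -0.25 or lower (-2.45 in mouse 2); at 10 days it ran from -1.59 to 0.59. No acinar gene was called lower and 1, Bhlha15, an acinar transcription factor, was called higher (1.49 ± 0.49, and 0.68 and not called without mice 5 and 6). Bhlha15 was not called by the mean of its probes either (0.78). The median of the acinar list was 0.12. Under median centring 14 of the 28 acinar genes were called lower and none higher (median -1.24), beside 6622 lower of all 18070 genes. With the scanner's signals 2 were lower and 1 higher (median -0.04). Amy2a5, an amylase that was called lower with the scanner's signals (-1.26), ranged from -1.95 to 2.67 at 20 weeks and Cpa1, a carboxypeptidase, from -2.56 to 2.01. Without mice 5 and 6, 32 beta cell genes were called lower, with a median of -2.04, while the acinar list had 8 members called lower and a median of -0.82; Cela1, an elastase, was then called lower (-1.48) and Cpa1 stood at -0.48. The part of the acinar signal in the endocrine changes of those mice was not tested.

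**Figure D3:**
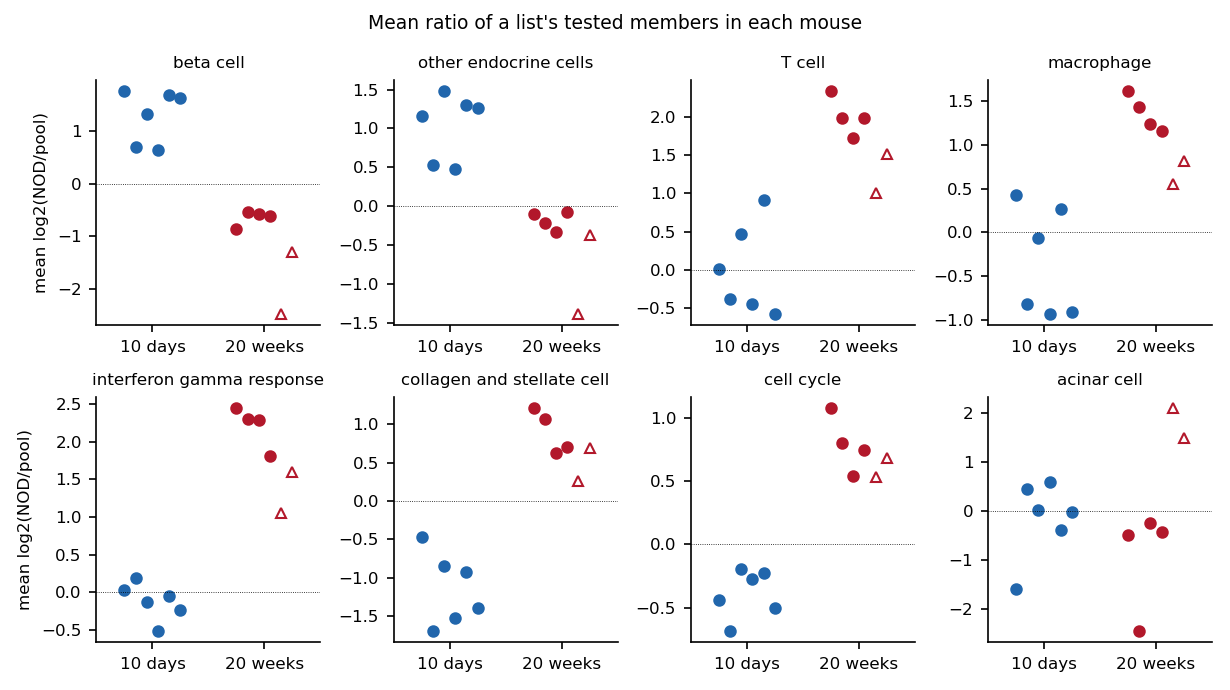
Mean log2(NOD/pool) of the tested members of 8 gene lists (y axis) in each mouse at 10 days (blue) and 20 weeks (red). Open triangles are 20 week mice 5 and 6, which are lowest for the beta cell list and highest for the acinar list; in every panel but that of the acinar cell the ages do not overlap.

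T cell genes were higher at 20 weeks. Of 25 tested T cell genes 19 were called higher and none lower, with a median change of 1.67; in the NOD channel 14 were called higher (median 1.20), and the pool median was -0.34. Of 18 genes of T cell activation and checkpoints 10 were called higher (median 1.27) and none lower. Icos, a costimulatory receptor of activated T cells, had the largest rise of all named genes. Its ratio ran from -1.76 to 0.66 (median -1.04) at 10 days and from 3.18 to 4.54 (median 4.02) at 20 weeks, without overlap. The change was 4.74 ± 0.34 (limma adjusted p = 6.29e-10), made of 3.28 in the NOD channel and -1.46 in the pool; a second probe gave 1.79.

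Within the T cell list, Cd3d, a chain of the T cell receptor complex, changed by 3.34 ± 0.49, Cd5 by 3.06 ± 0.42, Cd6 by 3.69 ± 0.32 (0.30 by a second probe) and Cd8a, the coreceptor of cytotoxic T cells, by 1.78 ± 0.25. The Cd8a probe was well above background on 3 of 6 arrays in the NOD channel and on 1 in the pool at 10 days. Cd3d ran from -1.63 to 2.22 at 10 days and from 2.31 to 4.2 at 20 weeks, the highest 10 day mouse lying just under the lowest 20 week mouse. Cd3e, another chain of the same complex, changed by 0.55 ± 0.13 (adjusted p = 0.00124), under the 2-fold floor. Cd4, the coreceptor of helper T cells, was not called, and no 10 day array had its pool signal above background. Pdcd1, the checkpoint receptor PD-1, changed by 2.59 ± 0.28 and Tnfrsf4, the costimulatory receptor OX40, by 2.81 ± 0.27. Cytotoxic genes moved the same way, with 12 of 17 called higher (median 1.37): Nkg7 by 2.59 ± 0.30, Tbx21, the transcription factor T-bet, by 2.40 ± 0.21, Ms4a4b by 3.34 ± 0.48 and Klrd1 by 2.5 ± 0.32.

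B cell genes showed 12 of 18 members called higher (median 1.32) and none lower. Ighm, the heavy chain of IgM, ran from -3.64 to 0.85 at 10 days and from 0.85 to 4.01 at 20 weeks; the highest 10 day mouse and the lowest 20 week mouse almost met. The change of Ighm was 3.82 ± 0.75 (limma adjusted p = 0.000177). Cd79b, a signalling chain of the B cell receptor, changed by 3.35 ± 0.63 and Ms4a1, the CD20 antigen, by 3.26 ± 0.53. Of 9 plasma cell genes 2 were called higher, Mzb1 (1.73 ± 0.33) and Jchain, the joining chain of secreted antibody. Jchain had a large rise in both channels, 5.61 in the NOD mice and 4.28 in the pool, which left a change in the ratio of 1.34 ± 0.48 (limma adjusted p = 0.022). It was not called without 20 week mouse 1, 2 or 3 (1.01, 1.18 and 1.19).

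Myeloid genes rose as well. Of 26 macrophage genes 15 were called higher (median 1.35) and none lower, and 17 were called higher in the NOD channel; under median centring 7 were called higher and 2 lower (median 0.51). Lyz2, a lysozyme of myeloid cells, ran from -4.49 to 0.35 (median -2.37) at 10 days and from 1.42 to 2.73 (median 1.94) at 20 weeks; 3 of the 10 day mice lay between -4.49 and -3.26. Its change was 4.09 ± 0.71 (limma adjusted p = 4.08e-05; 1.55 by a second probe). The related Lyz1 changed by 3.54 ± 0.60; Lyz1 and Lyz2 are close paralogs whose probes may share target RNA. Clec7a, the beta-glucan receptor Dectin-1, changed by 3.86 ± 0.27, Aif1 by 2.96 ± 0.34 and Ctss, a lysosomal protease of antigen presenting cells, by 3.34 ± 0.43. Il1b, the cytokine interleukin 1 beta, lay at -1.63 to -1.39 in all 10 day mice except mouse 1 (1.15) and at 2.01 to 3.40 at 20 weeks; its change was 3.64 ± 0.36. Ptprc, the pan-leukocyte antigen CD45, changed by 3.82 ± 0.52, with 0.33 and 1.64 by its other probes. Dendritic cell genes had 11 of 15 called higher (median 1.53; 7 under median centring), while none of the 5 tested neutrophil genes was called (unadjusted limma p under 0.05 in 0).

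The immune lists varied among the 10 day mice. The mean ratio of the macrophage list was -0.82, -0.93 and -0.90 in mice 2, 4 and 6 and lay between -0.07 and 0.42 in mice 1, 3 and 5. The T cell list split the same mice, with -0.38, -0.45 and -0.58 against 0.01 to 0.91. At 20 weeks both lists were lowest in mouse 5 (0.55 for macrophages, 1.00 for T cells), yet every 20 week mouse lay above every 10 day mouse for both.

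**Figure D4:**
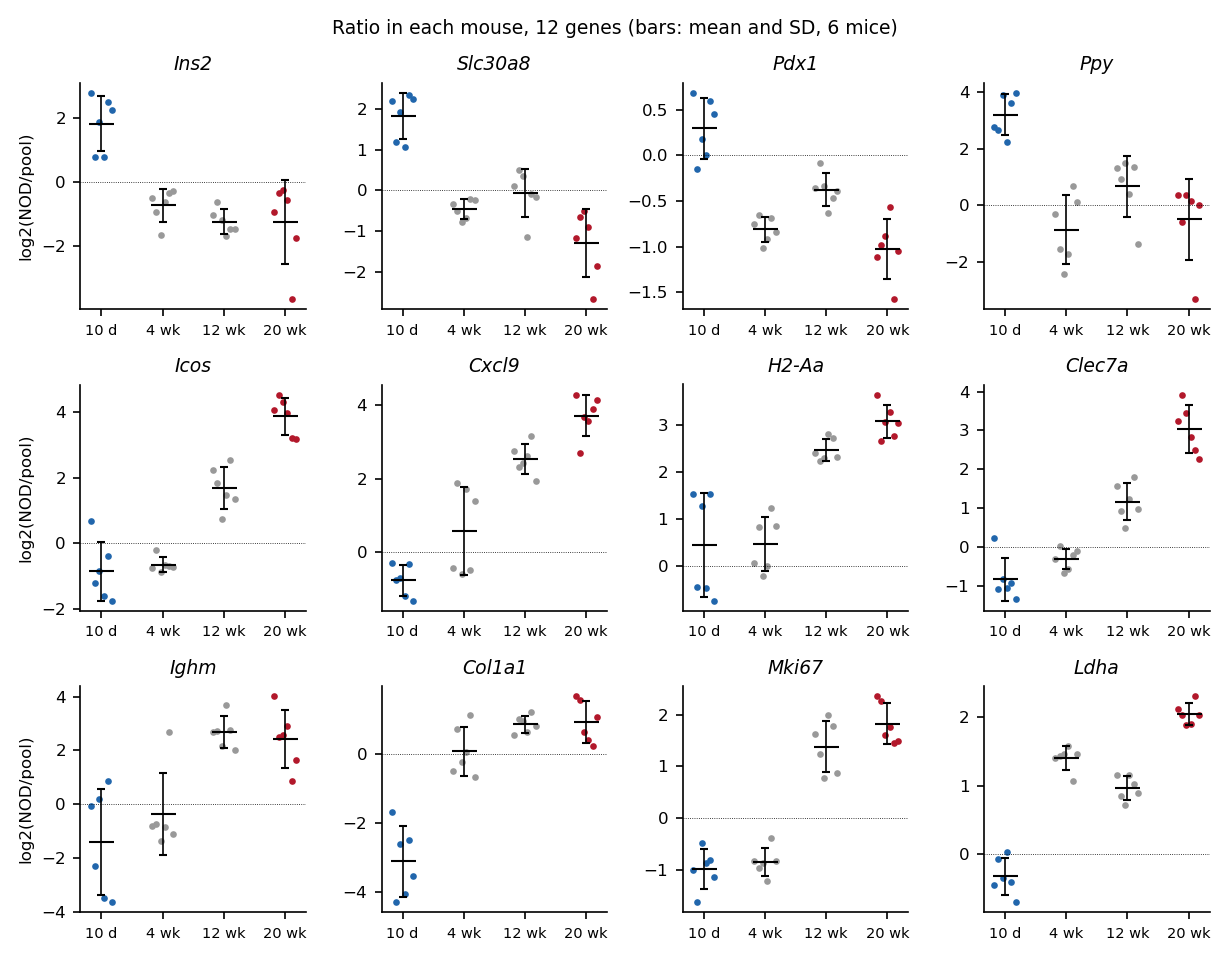
log2(NOD/pool) of 12 genes (y axis) in each mouse at the 4 ages (x axis), with the mean and SD over 6 mice. The 10 day mice (blue) and 20 week mice (red) do not overlap for any of the 12, though they almost meet for Ighm. For Slc30a8 and Ins2 all 10 day mice lie above 0 and all 20 week mice below. For Cxcl9, Mki67 and Col1a1 all 10 day mice lie below 0 and all 20 week mice above. For Icos and Clec7a the highest 10 day mouse lies above 0.

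Most interferon gamma response genes rose. Interferon gamma is the main cytokine of activated T and NK cells; it acts on genes for chemokines, guanylate-binding proteins and antigen presentation. Of 27 tested members 25 were called higher and none lower, with a median change of 1.59, and 25 were called higher in the NOD channel (median 2.28, against 0.27 in the pool). Under median centring 12 of the 27 were called higher, with a median of 1.01. Ifng itself ran from -0.71 to 1.19 (median -0.03) at 10 days and from 1.37 to 4.30 (median 2.89) at 20 weeks. Its change was 2.78 ± 0.40 (limma adjusted p = 3.67e-06), with the NOD signal well above background on 3 of 6 arrays at 10 days. No 20 week mouse fell within the 10 day range.

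Cxcl9, a chemokine that draws T cells through the receptor CXCR3, had the largest rise of the list. Its ratio ran from -1.32 to -0.28 (median -0.73) at 10 days and from 2.71 to 4.29 (median 3.79) at 20 weeks, so all 10 day mice were below and all 20 week mice above the control. The change was 4.48 ± 0.39 (limma adjusted p = 7.36e-09), with 4.85 in the NOD channel and 0.37 in the pool. Cxcl10, a chemokine of the same receptor, changed by 3.66 ± 0.68, with 2.11 in the NOD channel and -1.55 in the pool. Socs1, an inhibitor of cytokine signalling, changed by 3.68 ± 0.39, Ubd, a ubiquitin-like protein, by 3.44 ± 0.42, Iigp1, an immunity-related GTPase, by 3.08 ± 0.52 and Gbp3 by 2.79 ± 0.51. Cxcr3 itself changed by 2.90 ± 0.29.

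The 250 bases before the starts of Cxcl9, Socs1 and Cxcl10, the members with the largest rises, are shown because interferon-responsive genes are read through short elements near their starts (RefSeq promoter table, GRCm38.p6, all on the minus strand). Windows were searched on both strands for the interferon-gamma activated site TTCNNNGAA and the interferon-stimulated response element (GAAA, any 2 bases, GAAA), and capitals mark matches; overlapping matches run together.
Cxcl9 (chr5:92328080-92328329): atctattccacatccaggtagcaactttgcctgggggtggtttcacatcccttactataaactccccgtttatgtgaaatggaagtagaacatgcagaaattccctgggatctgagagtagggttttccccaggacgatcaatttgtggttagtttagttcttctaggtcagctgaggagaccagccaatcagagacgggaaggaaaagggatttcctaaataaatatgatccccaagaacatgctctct
Socs1 (chr16:10785537-10785786): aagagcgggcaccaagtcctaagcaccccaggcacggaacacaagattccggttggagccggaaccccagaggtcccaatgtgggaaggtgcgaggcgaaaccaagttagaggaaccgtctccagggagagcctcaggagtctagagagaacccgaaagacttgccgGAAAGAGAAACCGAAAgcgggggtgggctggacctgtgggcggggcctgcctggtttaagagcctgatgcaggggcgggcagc
Cxcl10 (chr5:92348890-92349139): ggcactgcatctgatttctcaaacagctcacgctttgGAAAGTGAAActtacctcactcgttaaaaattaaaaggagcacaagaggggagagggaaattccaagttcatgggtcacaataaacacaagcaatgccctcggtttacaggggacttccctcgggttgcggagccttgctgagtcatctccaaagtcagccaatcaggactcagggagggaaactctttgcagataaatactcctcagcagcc
Socs1 held 2 overlapping response elements, 83 and 77 bases before the start, Cxcl10 held 1 at 213 bases, and Cxcl9 held neither pattern in these letters. The response element stood in 11 of the 19 list members with an entry (57.9%), against 3.04% of the 27025 windows in the table and 1 of 26 beta cell windows (3.85%). The activated site stood in 8 of 19 (42.1%), against 7.18% of all windows. The members were chosen as interferon gamma response genes, so these shares describe the list and are no result of these islets. A match is not a tested site.

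Genes of the type I interferon response, which shares the response element but answers other interferons, moved less evenly in the ratio. Of 28 members 5 were called higher and 1 lower, with a median change of 0.67 (3 higher, 3 lower and a median of -0.12 under median centring); without 20 week mice 5 and 6, 9 were called higher, and without mouse 2 or mouse 3, 3 were. In the NOD channel 13 of the 28 were called higher and none lower, with medians of 1.28 there and 0.53 in the pool. Zbp1, a nucleic acid sensor, changed by 2.61 ± 0.36 in the ratio and Bst2, the antiviral protein tetherin, by 1.74 ± 0.22. Trim30a (1.90 ± 0.39) and the RNA sensor Dhx58 (1.01 ± 0.39) rose too. Neither Ifih1 (0.83 without either mouse) nor Dhx58 (0.84 and 0.80) was called without mouse 2 or without mouse 3, nor was Dhx58 without 20 week mouse 1 (0.97) or 10 day mouse 4 (0.96). Ifih1, the RNA sensor MDA5, was near 0 at 10 days (-0.31 to 0.12) and split at 20 weeks, with 1.07, 2.26 and 2.28 in mice 1 to 3 and 0.11 to 0.28 in mice 4 to 6; its change was 1.08 ± 0.40 (limma adjusted p = 0.0256). The mean of the list split the same mice, at 0.94, 1.61 and 1.81 against -0.02 to 0.12. Isg20, an exonuclease, went the other way, by -1.86 ± 0.30.

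Antigen presentation genes were higher. Of 13 tested genes of MHC class II presentation 11 were called higher (median 2.20) and none lower, and 7 and none under median centring; the medians were 2.30 in the NOD channel and 0.10 in the pool. H2-Aa, a chain of the I-A molecule, ran from -0.75 to 1.53 (median 0.42) at 10 days and from 2.67 to 3.66 (median 3.07) at 20 weeks, with a change of 2.65 ± 0.36 (limma adjusted p = 2.07e-06). Cd74, the invariant chain, changed by 2.98 ± 0.44, H2-Ab1 by 2.53 ± 0.43 and H2-DMb1 by 2.78 ± 0.30. NOD and NOD.B10 mice carry different alleles of these genes, and whether the probes bind them alike was not tested. Of 19 genes of MHC class I and the immunoproteasome 8 were called higher (median 0.95), 2 with 1 lower under median centring (median -0.31), and 13 without 20 week mice 5 and 6. In the NOD channel 13 of the 19 were called higher and none lower, with medians of 1.64 there and 0.54 in the pool. B2m, the light chain of class I, changed by 3.29 ± 0.32 in the ratio (1.00 and 3.69 by its other probes), H2-K1 by 1.64 ± 0.35, Psmb8 by 1.56 ± 0.35 and the peptide transporter Tap1 by 1.43 ± 0.26.

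Chemokines, complement and genes of lymphoid tissue rose in the ratio. Of 35 chemokines and receptors 24 were called higher (median 1.61) and none lower, against 15 and 2 under median centring (median 0.88). By channel, 19 of the 35 were called higher and 1 lower in NOD, with medians of 1.16 there and -0.29 in the pool. Ccl19, a chemokine of lymphoid tissue, changed by 4.32 ± 0.70; it was 2.11 and 2.79 in 10 day mice 3 and 5 and -2.62 to -0.78 in the other 10 day mice, and lay between 3.25 and 4.6 at 20 weeks. Ccl8, a monocyte chemoattractant, changed by 3.89 ± 0.29, with the NOD signal well above background on 2 of 6 arrays at 10 days, and Ccl7 by 2.93 ± 0.49. Of 24 genes of lymphoid tissue organisation 14 were called higher (median 1.17), against 6 higher and 1 lower under median centring (median 0.80). By channel, 7 of the 24 were called higher and 1 lower in NOD, with medians of 0.50 there and -0.70 in the pool. The ratio of the B cell chemokine Cxcl13 changed by 2.99 ± 0.48 and that of the adhesion molecule Vcam1 by 3.21 ± 0.40. Glycam1, a mucin of lymph node high endothelial venules, changed by 2.28 ± 0.72 (limma adjusted p = 0.00967), was 3.1 and 3.01 in the same 10 day mice 3 and 5, and was 0.36 in 20 week mouse 5; the part of lymph node tissue in these values was not tested. Of 16 complement genes 13 were called higher (median 1.83), against 5 under median centring (median 0.74). Those 13 included C3 (3.95 ± 0.61, and 0.64 by a second probe) and Cfb (2.35 ± 0.36). By channel, 12 of the 16 were called higher and none lower in NOD, with medians of 1.69 there and -0.20 in the pool. Of 25 cytokines and receptors 12 were called higher and 1, the interleukin 1 receptor Il1r1, lower (-1.67 ± 0.22).

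Further large rises lay outside these lists. Apol6, an apolipoprotein L, changed by 4.27 ± 0.21 (limma adjusted p = 3.07e-12), from a range of -1.92 to -1.08 at 10 days to 2.12 to 3.23 at 20 weeks. Plac8 changed by 3.99 ± 0.42, the lymphocyte receptors P2ry10 and Gpr171 by 3.95 ± 0.31 and 3.92 ± 0.36, and the interferon-inducible Ifi27l2a by 3.84 ± 0.44. In each of these the NOD channel was called higher and the pool channel was lower.

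Connective tissue genes rose in the ratio with falling signal in the controls. Of 31 tested genes of collagen and stellate cells, the fibroblast-like cells of the pancreas, 24 were called higher and none lower, with a median change of 1.91; under median centring 16 were higher and 2 lower (median 1.01). Their medians were -0.37 in the NOD channel, where 8 were called lower and 1 higher, and -2.14 in the pool. Col1a1, a chain of type I collagen (probe at chr11:94813075-94813134, mm9, plus strand), ran from -4.31 to -1.68 (median -3.09) at 10 days and from 0.24 to 1.68 (median 0.85) at 20 weeks. Its change was 4.06 ± 0.38 (limma adjusted p = 1.81e-08), although its NOD signal fell by 1.01 on the log2 scale; the pool signal changed by -5.07. At 10 days NOD islets had less Col1a1 than the pool in every mouse, and at 20 weeks more in every mouse.

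Other members had the same form. Col1a2 changed by 3.62 ± 0.35, Col3a1 by 2.92 ± 0.33 (0.44 by a second probe), Col5a1 by 3.40 ± 0.25 (0.19 by a second probe), Lum, a small proteoglycan, by 3.44 ± 0.32 and Vim, the intermediate filament vimentin, by 3.78 ± 0.26. Their pool changes lay between -4.47 (Col3a1 and Col5a1) and -3.36 (Vim). Of 16 endothelial genes 3 were called higher (median of the list 0.47; 1 and 5 lower under median centring, median -0.48): Vwf (2.74 ± 0.39), Cdh5 (1.86 ± 0.22) and Sox17 (1.5 ± 0.18), while Pecam1 changed by 0.63 ± 0.15 without reaching 2-fold and stood at -0.34 under median centring. Schwann cell genes had 2 of 7 called higher, the receptor Ngfr (1.72 ± 0.25) and S100b (1.27 ± 0.16). None was higher and 2 were lower under median centring. Ngfr was not called by the mean of its probes (0.95). Sox10, the lineage factor, changed by 0.29 ± 0.14 (limma adjusted p = 0.0786, and -0.06 under median centring). Of 6 adipocyte genes 5 were called higher (median 1.53), with Adipoq at 1.62 ± 0.14 and Fabp4 at 1.90 ± 0.32. In the NOD channel no adipocyte gene was called, with medians of 0.19 there and -1.25 in the pool. The endothelial and Schwann lists each had 1 gene called lower in the NOD channel and none higher. Their NOD medians were -0.23 (endothelial) and -0.03 (Schwann), and their pool medians -0.73 and -0.68. The Adipoq signal was well above background on 1 of 6 NOD arrays at 10 days and on 1 of 6 in the pool at 20 weeks. Plin1 was below background in the pool at 20 weeks, and its ratio was at least 2.7-fold higher than at 10 days.

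Proliferation genes showed the same pattern. Of 34 tested cell cycle genes 17 were called higher and 1 lower (median 0.98), against 6 and 3 under median centring (median 0.30), with medians of -0.49 in the NOD channel and -1.5 in the pool; in the NOD channel none was called higher and 6 lower. Mki67, the marker Ki-67, ran from -1.63 to -0.48 (median -0.94) at 10 days and from 1.46 to 2.35 (median 1.68) at 20 weeks. Its change was 2.81 ± 0.22 (limma adjusted p = 1.29e-09), from -0.49 in the NOD channel, which was not called, and -3.30 in the pool. Birc5, the inhibitor of apoptosis survivin, changed by 3.00 ± 0.22, Cdt1, a replication licensing factor, by 2.96 ± 0.18 and Cdc20, an activator of mitotic exit, by 2.5 ± 0.26. Ccnd2, the D-type cyclin of beta cells, went the other way by -1.65 ± 0.25.

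Growth genes of the fetal and newborn period were called in both directions. Of 17 tested imprinted and fetal growth genes 5 were called higher and 2 lower (median 0.80), and 1 and 3 under median centring (median -0.09). By channel, 7 of the 17 were called lower and none higher in NOD, with medians of -0.82 there and -1.75 in the pool. Igf2, the growth factor IGF2, ran from -2.91 to -2.07 (median -2.44) at 10 days and from -0.84 to 0.05 (median -0.12) at 20 weeks; its change was 2.22 ± 0.16 (limma adjusted p = 5.96e-10). The NOD signal fell by 2.19 on the log2 scale and the pool signal changed by -4.41, and at 20 weeks all mice but mouse 5 (-0.84) lay between -0.51 and 0.05. Mest changed by 2.05 ± 0.23, H19 by 1.69 ± 0.12, Gpc3, a glypican, by 1.37 ± 0.26 and Cdkn1c, an inhibitor of cell division, by 1.07 ± 0.13. The H19 probe was well above background on 2 of 6 arrays in each channel at 20 weeks. Meg3, a maternally expressed RNA, changed by -1.16 ± 0.29, and Peg3 by -1.83 ± 0.27. Without 20 week mouse 5 the change of Meg3 was -0.87, under the floor.

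Genes that mature beta cells keep silent, often called disallowed, were mostly higher. Of 18 members 10 were called higher and 2 lower (median 1.08), and 6 and 3 under median centring (median -0.01), with medians of 0.36 in the NOD channel and -1.08 in the pool. Ldha, lactate dehydrogenase A, ran from -0.71 to 0.02 (median -0.38) at 10 days and from 1.88 to 2.31 (median 2.03) at 20 weeks. Its change was 2.38 ± 0.11 (limma adjusted p = 1.43e-12), from 0.43 in the NOD channel, under the 2-fold floor, and -1.94 in the pool. Slc16a1, the lactate and pyruvate carrier MCT1, changed by 2.26 ± 0.15 (-0.20 and 1.68 by its other probes), Rest, a repressor of neuronal and endocrine genes, by 2.49 ± 0.17 and Hk2, a low-Km hexokinase, by 2.81 ± 0.30. Of these 4, Hk2 alone was called in the NOD channel (1.59). Npy, neuropeptide Y, went the other way by -2.45 ± 0.31.

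Some stress genes were called in each direction, with counts that depend on the scaling. Over all 18070 genes, 1398 (7.74%) were called higher and 867 (4.8%) lower, against 445 and 6622 under median centring. Of 16 immediate early and heat shock genes 6 were called higher and 5 lower (median 0.72), against 1 and 6 under median centring (median -0.66). The early growth response factors Egr1 and Egr2 changed by 2.09 ± 0.33 and 2.77 ± 0.28, whereas the inducible HSP70 genes Hspa1a and Hspa1b, near-identical copies, changed by -2.02 ± 0.31 and -1.92 ± 0.25, and the chaperone genes Hsph1 and Dnajb1 by -2.41 ± 0.42 and -2.09 ± 0.46. Of 25 genes of the unfolded protein response 2 were called higher and 2 lower (median -0.30), near the shares of all genes. The counts were 0 and 17 under median centring. Ddit3, the factor CHOP, changed by -1.83 ± 0.43 although it was higher by 1.17 in the NOD channel, as the pool was higher by 3.00. Of 21 oxidative stress genes 4 were called higher and 1, the peroxidase Gpx3, lower (-2.18 ± 0.27). The higher ones included the phagocyte oxidase chains Cyba (1.77 ± 0.18) and Cybb (1.39 ± 0.18). Cybb was not called by the mean of its probes (0.87). Under median centring the list's counts were 3 and 12, and its median of 0.06 turned to -1.25. Among 19 genes of Fas and cell death 9 were called higher and 1, the proapoptotic Bax, lower (-1.43 ± 0.17), with a median of 0.77. Under median centring 2 were called higher and 1 lower, with a median of 0.09. By channel, 4 of the 19 were called higher and 1 lower in NOD, with medians of 0.21 there and -0.35 in the pool. Under loess none of the 20 ribosomal protein genes and none of the 20 respiratory chain genes was called, with medians of 0.61 and 0.26. Unadjusted limma p under loess was below 0.05 in 13 and 14 of them. Of all genes, 53.9% passed by adjusted p alone, and the share by unadjusted p, which is at least as large, was not counted. Under median centring the 2 medians turned to -0.76 and -1.12. There 8 and 15 of these genes were called lower, beside 6622 of all 18070 genes.

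**Figure D5:**
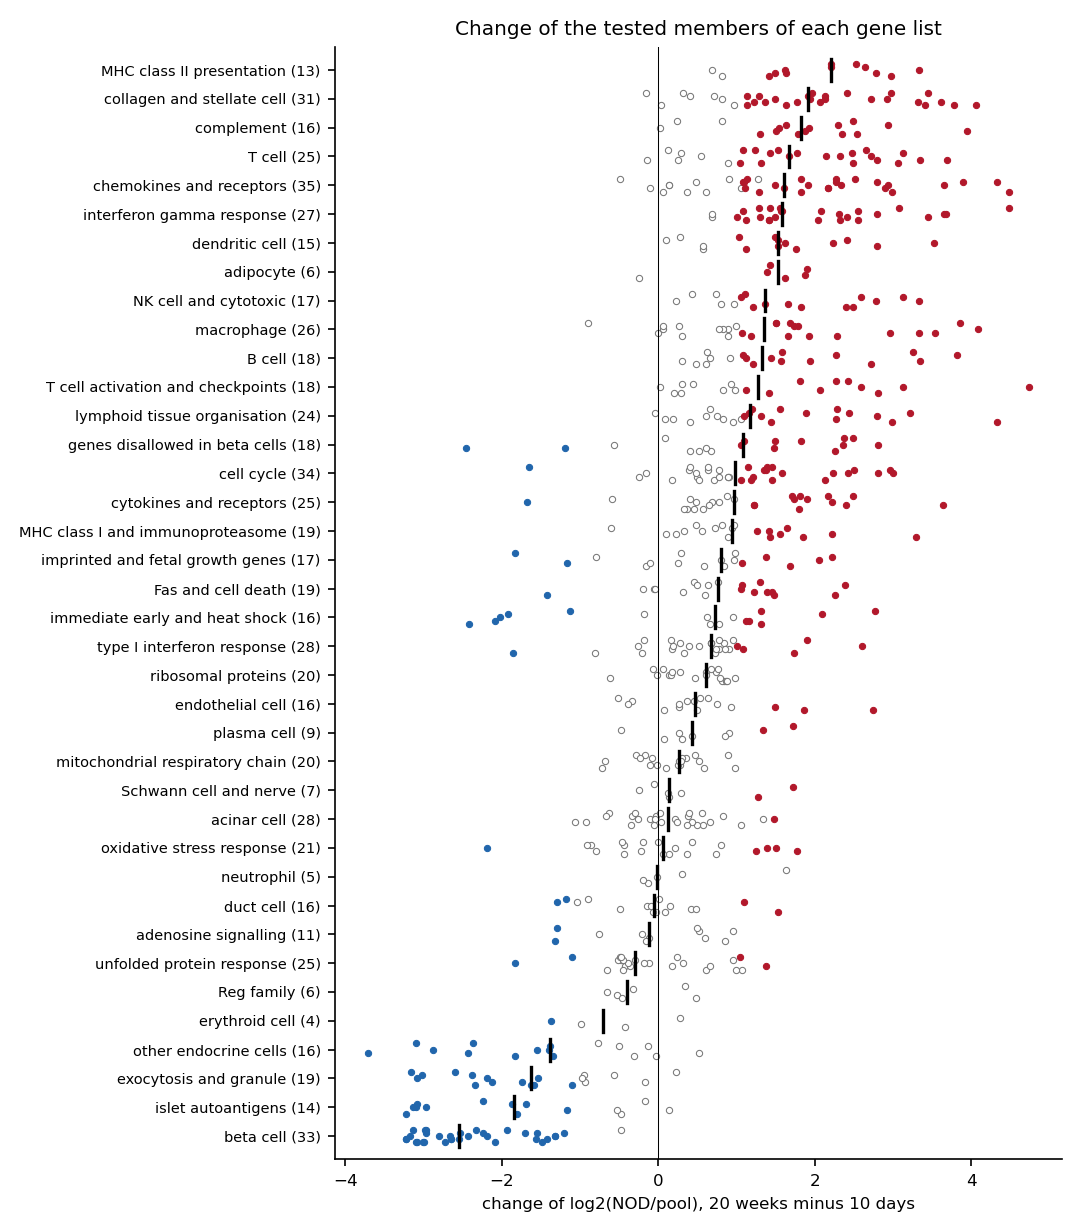
Change of log2(NOD/pool) from 10 days to 20 weeks (x axis) for the tested members of 38 gene lists (y axis, number tested in parentheses), filled where called and open where not, with a bar at each list's median. The beta cell list lies at the bottom with a median of -2.55 and MHC class II presentation at the top with 2.20; under median centring the medians of the disallowed, imprinted, class I, type I interferon, ribosomal, respiratory chain, acinar, immediate early and heat shock, oxidative stress, endothelial, Schwann and plasma cell lists turn below 0, and that of the neutrophil list turns above it.

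Genes of neighbouring tissue and duct changed as follows. Of 16 duct genes 2 were called higher, Anxa3 (1.53 ± 0.31) and the duct factor Sox9 (1.10 ± 0.30), and 2 lower, the keratin Krt7 (-1.29 ± 0.31) and the adhesion molecule Epcam (-1.18 ± 0.23). Without 20 week mouse 5, Krt7 (-0.92) and Sox9 (0.81) were under the floor, as was Sox9 without mouse 6 (0.97) and by the mean of its probes (0.67). Of 11 genes of adenosine signalling 2 were called lower, the transporter Slc29a1 (-1.32 ± 0.16) and the receptor Adora2b (-1.29 ± 0.39); without 20 week mice 5 and 6 Adora2b was not called (-0.97, limma adjusted p = 0.061). Under median centring 5 of the 11 adenosine genes and 8 of the 16 duct genes were called lower and none higher, beside 6622 lower of all 18070 genes. None of the 6 tested Reg genes, secreted lectins of the exocrine pancreas, was called (unadjusted limma p under 0.05 in 0). The intestinal fatty acid binding protein Fabp2 changed by -2.88 ± 0.35, with its pool signal well above background on 1 of 6 arrays at 10 days. Defa1 and Defa6, defensins of intestinal Paneth cells, were below background in both channels at 10 days, so no fold with age is given. At 20 weeks Defa1 was at least 6.78-fold lower in NOD than in the pool. Cd209b, a lectin of macrophages, changed by -2.54 ± 0.60 but was not called with the scanner's signals (-1.79, limma adjusted p = 0.25) or by the value table (adjusted p = 0.246). Of the 4 tested erythroid genes 1, the haemoglobin gene Hba-a2, was called lower (-1.36 ± 0.33).

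A small set had ratios alike at both ages under loess. Of the 13 genes called in the same direction at both ages, 9 had ratios that differed by 0.5 or less on the log2 scale. Ratios above 0 at both ages were those of Tagap1, Exosc8 and Rgs2, and those below 0 included Reg3b, Marco, Sdc2, Cnn1 and Zfp871. NOD was always labelled with Cy5, so strain and dye cannot be told apart in these ratios. Sdc2, the proteoglycan syndecan-2, ran from -2.01 to -1.48 at 10 days and from -2.37 to -1.5 at 20 weeks, and its change was -0.15 ± 0.13 (limma adjusted p = 0.364). Zfp871, a zinc finger protein, ran from -1.48 to -1.03 and from -1.95 to -1.37, with a change of -0.32 ± 0.13. Exosc8, a subunit of the RNA exosome, ran from 0.76 to 1.37 and from 0.63 to 1.55, with a change of 0.10 ± 0.15. Reg3b, a member of the Reg group, was low at both ages (median -2.20 and -2.59) while its NOD signal rose by 2.83 and its pool signal was higher by 3.15. Under median centring Sdc2 (-1.29), Zfp871 (-1.35), Cnn1 (-1.43) and Rgs2 (-1.45) were called lower, and Cnn1 was also called lower (-1.98) with the scanner's signals and by the deposited value table. Because these ratios were selected as alike, their likeness is a description.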

How the data were processed

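Islet RNA (300 ng) of 24 mice at 4 ages was hybridised to 2-colour Agilent arrays, and no dye was swapped. The authors deposited scanner files with mean spot and local background intensity, a log10 ratio and quality flags, made with Feature Extraction 10.7.3.1 per the file headers. They also deposited a table of log2 ratios, which followed the scanner's log ratio (lowest r 0.99981, column medians -0.18 to 0.086); its choice of probes and centring are not given in the sources used here. With limma 3.58.1 in R 4.3.3, signals were corrected by normexp (offset 50) and loess, leaving out 1639 control spots and outlier flags. Of 41174 probes, 25910 were well above background in a channel on at least 6 arrays. Each of 18070 genes took its brightest probe, named by RefSeq accession, then by symbol. All 24 arrays were fitted together, with 1 mean per age; 43 missing ratios were left out. The NOD channel was tested after loess and Aquantile. For a probe below background in a channel on every array of an age, a bound is given, with the dim mean set to the higher of that probe's own signal and the lowest signal well above background. The number of arrays limits the precision, and p-values cover the spread between single mice. Some named genes are not reported here.

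The 38 gene lists and the named genes were chosen with earlier results of these data known. Named were the 12 largest rises and falls without overlap, 6 of each with a dim channel, up to 6 called members per list and up to 2 moving against it, genes alike at both ages, and fixed markers. The fit was tested on simulated data. Alternatives covered background correction, scaling, filters, weights, probe choice, blocks, thresholds and each mouse left out; leaving out 20 week mice 5 and 6 for list counts and the NOD channel was added after seeing the data.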

Additional observations from a re-analysis of the deposited data

Results flagged for a closer look

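In 20 of the 308 groups of 6 ratios examined for the genes named above, 1 mouse lay far from the others, where chance gives about 1 in 20 groups. The measure was the gap to the nearest mouse over the whole range, against Dixon's critical value for 6 values. At 20 weeks, mouse 5 was the lowest for 10 genes of islet endocrine cells or among the largest falls. Its Ins1 ratio was -5.11, with -1.87 to -0.68 in the other mice. Its Sst ratio was -2.55, Ppy -3.33 and Pyy -3.67. Scg2 stood at -3.61, Scg3 at -4.28 and Syt13 at -4.6. G6pc2 stood at -4.75, Slc2a2 at -4.32 and Dnaja4 at -3.21. Glycam1 was also lowest in that mouse, at 0.36 against 2.89 to 3.97. The same mouse had the dimmest NOD signal and the highest mean of acinar genes; the part of either in these values was not tested.

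At 10 days, mouse 1 was the highest for 3 myeloid genes, Clec7a (0.24, others -1.33 to -0.82), Il1b (1.15, others -1.63 to -1.39) and Ccl8 (0.84, others -0.49 to -0.08). Mouse 2 of that age was the highest for Iigp1 (0.63) and Sox9 (-0.056), and mouse 4 the lowest for Cybb (-0.47). At 20 weeks mouse 1 was the highest for Bst2 (2.36), and mouse 4 for Adipoq (0.79) and Sox17 (1.26).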

How the results depend on the processing

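Scaling and thresholds both moved the counts. The 2265 calls (1398 higher, 867 lower) became 7067 (445 and 6622) under median centring, 5694 (2513 and 3181) with the scanner's processed signals and 4683 (2107 and 2576) with the deposited value table. The calls against 0 became 2754, 2903 and 2436 at 10 days and 1824, 3002 and 2344 at 20 weeks. By adjusted p alone 9735 genes passed (4727 higher, 5008 lower), and 516 (349 and 167) passed a 4-fold floor; the share called higher was 45% in the value table, 48.6% by adjusted p alone and 67.6% at 4-fold. Leaving out 1 mouse gave 2158 to 2363 calls (1319 to 1451 higher, 743 to 953 lower), 646 to 804 at 10 days, 859 to 1001 at 20 weeks and 808 to 1043 in the NOD channel. The other alternatives kept these counts within 1.5 times. The replicate numbers do not pair the mice: deviations of same-numbered mice correlated at 0.339, -0.188, -0.318, -0.422, -0.382 and -0.012, and with the replicate as a block 2265 genes were called (896 against 902 in the NOD channel). With slide as a random block 2271 were called; a fixed slide block could not be fitted. Under median centring Marco (-1.17), Pecam1 (-0.34), Sox10 (-0.056), Cpa1 (-0.99), Tagap1 (-0.9995), Exosc8 (-1.09) and Sox9 (-0.0046) turned below 0. With the scanner's signals Cd4 stood at -0.063, Marco at -0.18 and Tagap1 at -0.082, the last 2 also by the value table. Cpa1 stood at -0.48 without 20 week mice 5 and 6. Rgs2 stood at 0.20 with array weights, 0.087 by the mean of probes and 0.29 without those mice. Leaving out 1 mouse each gave Marco between -0.42 and 0.76, Cpa1 between -0.0082 and 0.91, Tagap1 between -0.036 and 0.22, Rgs2 between -0.21 and 0.11 and Reg3b between -0.66 and 0.018. None of these genes except Sox9 was called in the first place, and the cause was not tested. Among the remaining alternatives of single genes, 3887 values kept direction and side of the threshold, 51 in 28 genes were no longer called and 17 became called. Dim probes limit H19, Adipoq, Plin1, Fabp2, Cd8a, Ccl8 and the defensins.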
